A study of Arabidopsis thaliana with 9 samples.

Results

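The comparison described here sets 60 s against 20 s of high light in shoots of Arabidopsis thaliana. Both sides had met the light and differ, by their labels, in how long it lasted. They come from different pools, so any difference in handling or library cannot be told apart from duration. Its members are the 13946 genes, of 33473 listed, whose mean FPKM over the exposures of 0, 20 and 60 s was at least 5. FPKM is a read count scaled by transcript length and by library size. Every plant was of the accession Col-0 and 21 days old, raised under constant light of 50 µmol m-2 s-1 at 23 °C and moved to 1000 µmol m-2 s-1 at 21 °C for 0, 20 or 60 s, with no mutant or chemical in any group. The labels describe 3 pools of at least 30 plants for each exposure, but the deposited table holds 1 FPKM value per gene and exposure. No value below therefore has an error, no test could be made, and higher and lower describe the table alone.

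A leaf that meets strong light changes the redox state of its chloroplasts, releases calcium and reactive oxygen species, and passes such signals from cell to cell. Genes that respond first to touch, wounding, pathogens and light overlap widely, and many of them encode transcription factors, calcium sensors and cell wall proteins. Growth genes that respond to auxin, such as the SAUR genes (small auxin up RNA), have short-lived transcripts.

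Ratios were taken as log2((FPKM at 60 s + 1)/(FPKM at 20 s + 1)), and every fold below is on this scale of FPKM + 1. Over the 13946 genes the median ratio was 0.02, with the middle 95% of genes between -0.44 and 0.35. There were 20 genes at least 2-fold higher at 60 s (0.143%) and 33 at least 2-fold lower (0.237%). At 1.5-fold, 76 were higher (0.545%) and 173 lower (1.24%). Counted at any size, 8026 genes (57.6%) were higher and 5915 (42.4%) lower, but with the columns scaled to equal sums 5919 were higher and 8022 lower, so this lean depends on the scaling. The minimum mean left out HIS1-3, a linker histone gene with 4.19, 3.16 and 7.65 FPKM at 0, 20 and 60 s and a mean of 4.999, and its neighbours outside the limit were FKD1 (mean 4.998) and AT3G63220 (mean 4.996). Just inside stood AT1G48040, AT3G21295 and ROPGEF11, with ratios of 0.09, 0.03 and -0.12.

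Many of the most extreme ratios came from short features or from genes listed at 0 in some exposure. Of the 33 genes at least 2-fold lower, 13 were listed at 0 in some exposure and 15 had a locus under 300 bp. The corresponding numbers among the 20 higher genes were 10 and 12. Fewer overlapped another listed gene, 5 of the lower and 2 of the higher. Of all 13946 genes, 13927, 13933 and 13929 were above 0 at 0, 20 and 60 s, and the share of short loci among them is not given here. Genes are therefore named from a restricted set of 11529 genes that are protein-coding, above 0 at every exposure, at least 300 bp long and clear of any other listed gene. In that set the 2-fold limit was passed upward by 5 genes (0.0434%) and downward by 11 (0.0954%), the 1.5-fold limit by 48 (0.416%) and 134 (1.16%), and 6608 genes (57.3%) were higher at all against 4921 (42.7%) lower. Lower genes outnumbered higher ones in each of 5 ranges of level, for example 38 against 13 among 2616 genes with a mean of 5 to 10 FPKM and 11 against 8 among 1145 genes whose mean reached 100 FPKM. The 134 lower genes had median levels of 14.8, 22.9 and 13.7 FPKM at 0, 20 and 60 s, and the 48 higher genes 15.3, 14.2 and 22.9 FPKM. By choice of the genes, the 20 s median of the lower genes stood above their 60 s median, and the reverse held for the higher genes. The same choice favours 20 s and 60 s values that are extreme beside 0 s, so these medians are no separate result.

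**Figure D1:**
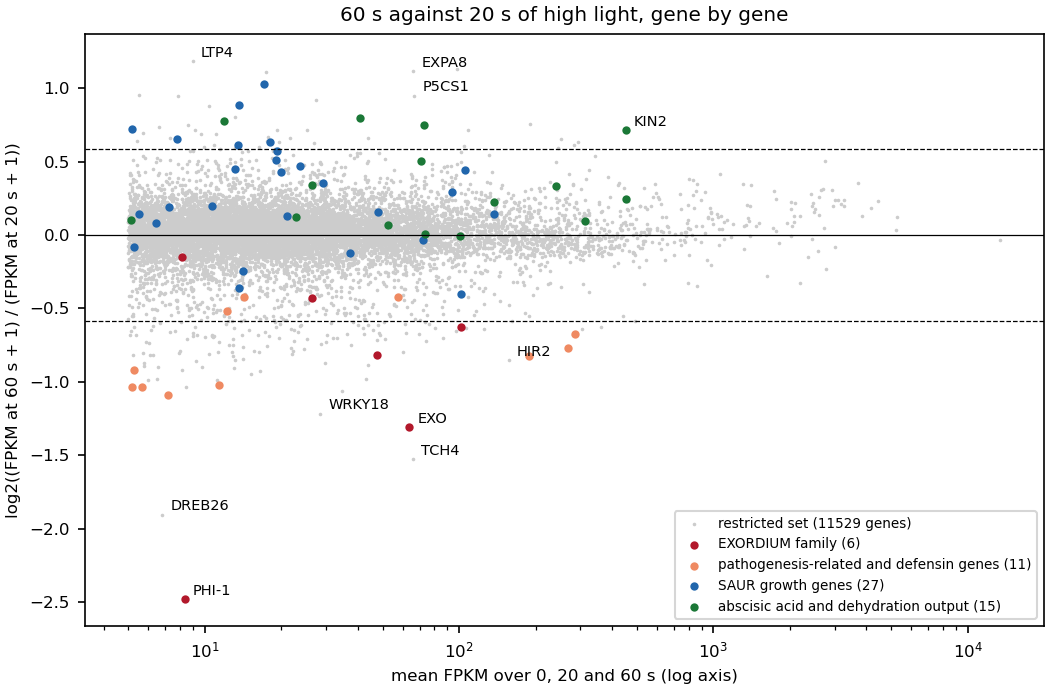
Log2 ratio of 60 s to 20 s against mean FPKM (log axis) for the 11529 genes of the restricted set, 1 point per gene, with dashed lines at 1.5-fold and 4 gene lists in colour. Lower genes reach a ratio of -2.48 (PHI-1), whereas the highest ratio is 1.19 (LTP4), and the defensin and pathogenesis-related genes all lie below 0.

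The markers match the shoot label. The photosynthetic gene RBCS1A, a Rubisco small subunit, stood at 13889, 13342 and 13027 FPKM, while 0 of 10 root markers and 0 of 6 flower markers reached a mean of 5 FPKM (highest means 1.18 and 0.287). Root markers summed to 2.22, 2.75 and 1.90 FPKM at 0, 20 and 60 s, with 3 of the 10 at 0 throughout, and flower markers to 1.22, 0.855 and 1.24 FPKM. Epidermis and guard cell markers summed to 359, 335 and 360 FPKM and vascular markers to 226, 227 and 244 FPKM, with 9 of 9 and 6 of 7 tested markers higher at 60 s than at 20 s (medians 0.10 and 0.09). Photosynthetic shoot markers were higher in 6 of 8 (median 0.23, or 0.05 under quantile normalization). Across the 3 columns the FPKM sum was 817000, 829701 and 858218, and 4 ribosomal RNA genes summed to 136, 1503.5 and 570 FPKM. That last measure was highest at 20 s, as were most genes described as lower at 60 s, and its part in the results was not tested. In such whole-shoot RNA, fewer cells of a type and less RNA per cell cannot be told apart.

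Within the restricted set the lowest ratios were those of PHI-1 and DREB26, while outside it the overlapping kinase gene AT5G45430 had a ratio of -2.13 and the short locus AT4G37095 was 2.64-fold higher at 60 s. PHI-1 (AT1G35140, chromosome 1 from 12851997 to 12853128), of the EXORDIUM family of wall-associated proteins, was at 1.64, 20.5 and 2.85 FPKM at 0, 20 and 60 s, and DREB26 (AT1G21910), an AP2/ERF transcription factor, at 1.97, 15.1 and 3.29 FPKM. TCH4, a xyloglucan endotransglucosylase that cuts and rejoins wall polymers, was at 29.0, 125 and 42.8 FPKM. At the other end of the restricted set, LTP4, a lipid transfer protein, was at 3.41, 6.76 and 16.7 FPKM, AT2G05540, a glycine-rich protein, at 75.8, 67.8 and 150 FPKM, and EXPA8, a wall-loosening expansin, at 69.6, 40.2 and 88.5 FPKM. The 3 lower genes had a single high value at 20 s, while LTP4 was higher with each exposure. AT2G05540 and EXPA8 had their lowest value at 20 s. Genes chosen by the ratio of 60 s to 20 s tend to have an extreme value at 20 s.

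The promoters of PHI-1, TCH4, LTP4, AT2G05540 and EXPA8 are shown as 250 bases upstream of the RefSeq gene start, from RefSeq TAIR10.1, read on the strand of the gene. They lie at chr1:12851733-12851982 (forward strand), chr5:23308681-23308930 (reverse), chr5:23925958-23926207 (reverse), chr2:2032904-2033153 (forward) and chr2:16950706-16950955 (reverse). Capitals mark letters on either strand that match the W-box forms TTGACT and TTGACC, which WRKY factors bind, the rapid stress response element CGCGTT, the calmodulin-binding activator (CAMTA) core ACGCGT, the abscisic acid response element (ABRE) core ACGTGG or the G-box CACGTG.
PHI-1: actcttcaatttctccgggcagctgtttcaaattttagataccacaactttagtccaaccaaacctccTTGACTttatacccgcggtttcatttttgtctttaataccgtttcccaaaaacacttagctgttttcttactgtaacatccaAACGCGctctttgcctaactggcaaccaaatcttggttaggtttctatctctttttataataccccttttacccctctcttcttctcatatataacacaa
TCH4: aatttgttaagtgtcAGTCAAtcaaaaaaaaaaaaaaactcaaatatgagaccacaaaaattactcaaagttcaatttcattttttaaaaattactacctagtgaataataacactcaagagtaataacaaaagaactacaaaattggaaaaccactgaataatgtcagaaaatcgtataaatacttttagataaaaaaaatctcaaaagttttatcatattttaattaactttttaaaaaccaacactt
LTP4: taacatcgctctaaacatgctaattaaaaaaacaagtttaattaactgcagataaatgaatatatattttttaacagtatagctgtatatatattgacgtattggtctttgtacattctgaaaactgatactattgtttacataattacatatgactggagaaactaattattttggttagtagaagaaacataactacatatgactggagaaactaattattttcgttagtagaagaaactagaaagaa
AT2G05540: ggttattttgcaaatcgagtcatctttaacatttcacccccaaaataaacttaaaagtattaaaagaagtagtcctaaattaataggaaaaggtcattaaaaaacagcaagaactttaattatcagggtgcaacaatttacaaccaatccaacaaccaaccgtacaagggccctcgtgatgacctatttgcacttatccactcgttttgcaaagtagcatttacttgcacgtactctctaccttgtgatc
EXPA8: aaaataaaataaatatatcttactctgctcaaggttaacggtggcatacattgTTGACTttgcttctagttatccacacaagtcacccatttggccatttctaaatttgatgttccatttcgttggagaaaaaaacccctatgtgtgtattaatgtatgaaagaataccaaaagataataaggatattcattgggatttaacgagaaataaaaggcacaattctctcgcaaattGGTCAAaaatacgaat
PHI-1 holds the rapid stress response element, read on the reverse strand from 100 bases before the start, and a W-box at 182 bases. TCH4 holds a W-box at 235 bases, EXPA8 holds W-boxes at 197 and 16 bases, and none of these letters occur in the windows of LTP4 or AT2G05540. These distances run from the RefSeq starts, which can differ from the deposited loci. On the reverse strand the deposited loci of TCH4, LTP4 and EXPA8 end at 23308282, 23925852 and 16950557, short of their windows. For TCH4 the gap is longer than the window itself. A match is a description of the letters and not a bound site.

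Over whole sets of promoters the W-box form TTGACT stood out by its share. Of the 134 genes at least 1.5-fold lower at 60 s, 49 (36.6%) held it in the 250 bases, against 6 of 48 (12.5%) genes at least 1.5-fold higher and 2101 of 11526 (18.2%) promoters of the restricted set. Among lower genes without introns 13 of 39 (33.3%) held it, and among lower genes with introns 36 of 95 (37.9%), beside 18.5% and 18.2% of all such genes. The share stepped down along the ratio, from 36.6% below -0.585 and 34.9% between -0.585 and -0.4 to 25.6% between -0.4 and -0.2, 18.3% between -0.2 and 0 and 16.9% between 0 and 0.2. TTGACC differed less, at 14.9% of lower, 6.25% of higher and 11.8% of all promoters.

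Rarer motifs rest on few genes. CGCGTT was held by 7 of the 134 lower promoters (5.22%), 0 of the 48 higher and 294 of all (2.55%), and ACGCGT, which overlaps it in the string ACGCGTT, by 6 (4.48%), 0 and 201 (1.74%). ACGTGG was held by 13 lower (9.70%), 9 higher (18.75%) and 1000 of all promoters (8.68%), and the G-box CACGTG, which overlaps it in the string CACGTGG, by 6 (4.48%), 6 (12.5%) and 840 (7.29%). The GCC-box GCCGCC, to which ethylene response factors bind, was in 5 lower (3.73%), 0 higher and 1.79% of all promoters. For the auxin response element TGTCTC the shares were 6.72%, 12.5% and 10.2%, for the dehydration-responsive element GCCGAC 2.24%, 2.08% and 2.83%, for the PBE-box CACATG 14.2%, 18.75% and 11.3%, and for the I-box GATAAG 16.4%, 25% and 12.6%. The sugar response element TATCCA was in 13.4%, 22.9% and 14.8%, the evening element AAATATCT, known from clock-controlled genes, in 3.73%, 8.33% and 5.09%, and the telo-box AAACCCTA in 2.99%, 0% and 3.40%. With 48 higher genes, each gene counts for more than 2 percentage points, and no test was made of any share.

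Genes that differed in either direction were short and had few introns. Of the 134 lower genes 39 (29.1%) had no intron, as had 15 of 48 higher genes (31.25%) and 1399 of all 11529 (12.1%). Median exonic lengths were 1379, 1221 and 1790 bases, and the median number of introns was 1, 1 and 4. Among the 1399 genes without introns, 2.79% were at least 1.5-fold lower and 1.07% at least 1.5-fold higher, while among 1750 genes with over 10 introns 1 gene was lower and 1 higher (0.0571% each). The spread of ratios moved the same way, since the middle 95% ran from -0.61 to 0.48 without introns and from -0.19 to 0.24 with over 10. It also narrowed with exonic length, from -0.57 to 0.49 under 1000 bases to -0.28 to 0.24 from 3000 bases on, and the part of measurement precision in these shares was not tested.

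**Figure D2:**
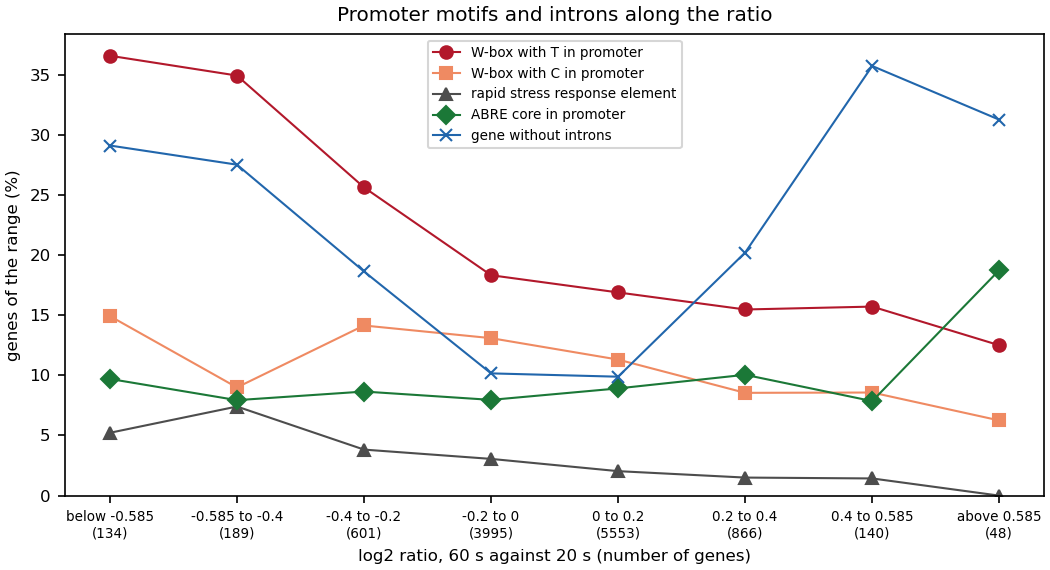
Share of genes (percent) holding a W-box, a rapid stress response element or an ABRE core in the 250 bases upstream, or having no intron, in 8 ranges of the log2 ratio of 60 s to 20 s, with the number of genes in parentheses. The line for TTGACT is highest in the lowest range (36.6%) and lowest in the highest (12.5%), whereas the share of intronless genes is high at both ends (29.1% and 31.25%) and about 10% near 0.

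Every list count below stands beside the shares over all 13946 tested genes. Of these, 42.4% were lower and 57.6% higher, with 1.24% at least 1.5-fold lower and 0.545% at least 1.5-fold higher. Lists can share members, as the WRKY and salicylic acid lists do, so their counts are not separate observations. Among cell wall genes, the EXORDIUM family was lower throughout and the XTH enzymes were lower by a smaller margin. Each of the 6 EXORDIUM family genes with the minimum mean was lower at 60 s, 4 of them at least 1.5-fold, with a median ratio of -0.72 beside 0.02 over all genes tested. EXO, the founding member and a brassinosteroid-responsive growth gene, was at 34.9, 111 and 44.4 FPKM at 0, 20 and 60 s, EXL5 at 33.4, 69.6 and 39.1 FPKM, and EXL3 at 72.0, 142 and 91.1 FPKM. In EXL4, at 5.59, 9.99 and 8.91 FPKM, the 60 s value was near that of 20 s. Summed over the family's listed genes, the level was 165, 389 and 213 FPKM. Among the XTH wall enzymes 12 of 14 were lower (median -0.15, or -0.03 with no minimum level), 2 of them past 1.5-fold, namely TCH4 and XTH24 (46.0, 100 and 62.6 FPKM), whereas XTH31 (10.9, 8.03 and 11.1 FPKM) was higher.

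Expansins did not share this direction. Of 17 tested, 11 were higher and 6 lower (median 0.07), and the extremes lay far apart. EXLA1, an expansin-like gene whose locus overlaps another listed gene, was at 13.2, 49.0 and 15.99 FPKM, a ratio of -1.56, while EXPA8 and EXPA1 (269, 188 and 296 FPKM) had ratios of 1.12 and 0.65. EXPA8 and EXPA1 thus had their lowest level at 20 s and EXLA1 its highest, which naming extremes by their ratio favours. Arabinogalactan proteins, glycoproteins of the cell surface, were lower in 23 of 30 (median -0.19), led by AGP5 at 25.6, 30.5 and 17.4 FPKM. The wall protein LRX3, a leucine-rich repeat extensin, stood at 31.5, 65.2 and 32.6 FPKM.

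Calcium sensors were lower almost throughout. Of 18 touch and calcium signalling genes 17 were lower at 60 s (median -0.22) and 4 at least 1.5-fold, beside 42.4% and 1.24% of all tested genes. The list holds TCH4 as well. The calmodulin-like genes TCH2 (55.0, 79.6 and 45.5 FPKM) and TCH3 (281, 383 and 245 FPKM) were lower at 60 s than at 0 s, as was CML37 (5.99, 6.17 and 3.65 FPKM). The calmodulin genes CAM3, at 264, 264 and 250 FPKM, and CAM6, at 82.5, 80.6 and 82.7 FPKM, differed little between exposures. Near-identical calmodulin copies can share reads, so that their separate values are uncertain.

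Transcription factor families of early stress responses mostly had lower levels at 60 s. WRKY factors were lower in 22 of 28 (median -0.23), with WRKY18 at 20.3, 45.7 and 19.1 FPKM, WRKY38 at 11.6, 13.3 and 7.86 FPKM and WRKY46 at 23.4, 21.9 and 14.1 FPKM. WRKY18 and its relative WRKY40 (7.30, 11.6 and 6.604 FPKM, in a locus that overlaps another gene) are known regulators of defence against pathogens. By contrast WRKY3 and WRKY4 had ratios of 0.08 and 0.13. In the MYB44 group and other stress MYB factors 7 of 8 were lower (median -0.36), among them MYB77, a partner of auxin response factors, at 14.6, 33.0 and 18.4 FPKM, and MYB70 at 11.8, 22.9 and 13.9 FPKM. Of 5 C2H2 stress zinc fingers 3 were lower (median -0.33), with the repressors ZAT7 at 9.58, 14.1 and 8.38 FPKM and STZ at 13.0, 19.5 and 12.1 FPKM.

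ERF and DREB factors were divided. DREB26 was the lowest of 25, the next was AT1G22190 at 14.97, 32.8 and 22.2 FPKM, and 14 members were higher, up to ERF8 at 13.9, 12.03 and 18.4 FPKM, so that the median was 0.01. Stress NAC factors numbered 3 higher and 3 lower (median 0.02). NAC090, a NAC factor outside that list but among the 30 lowest genes, was at 12.1, 14.5 and 6.83 FPKM. MAP kinase cascade genes were lower in 11 of 14 (median -0.13), with MPK11 at 11.6, 12.9 and 7.64 FPKM and MPK3 at 113, 128 and 102 FPKM.

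**Figure D3:**
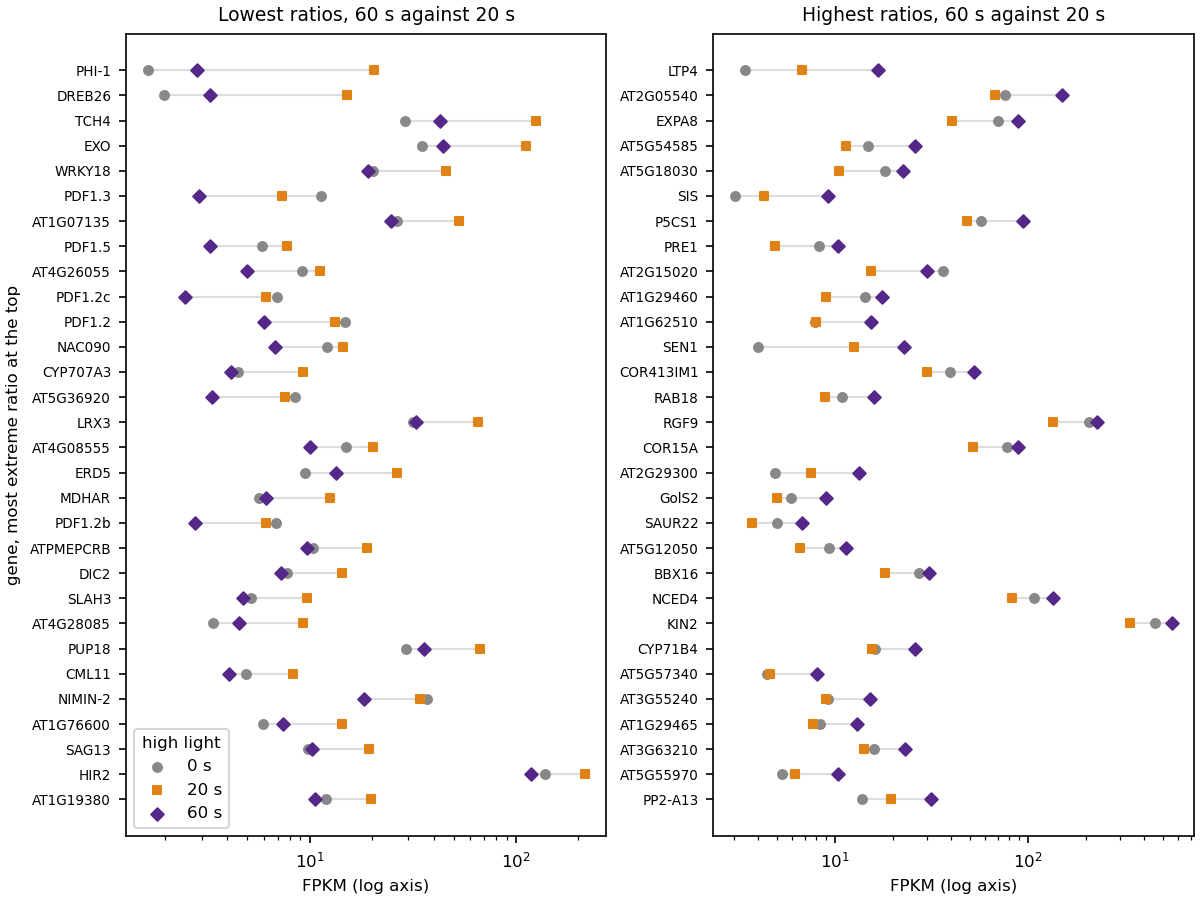
FPKM (log axis) at 0 s (circles), 20 s (squares) and 60 s (diamonds) for the 30 lowest (left) and 30 highest (right) ratios of 60 s to 20 s in the restricted set, 1 row per gene. On the left the 20 s value is above the 60 s value in every row by choice of the genes, and the 0 s value lies near the 60 s value in rows such as WRKY18, AT1G07135 and LRX3 but above both in PDF1.3. On the right SEN1 and LTP4 are higher with each exposure, whereas EXPA8 and PRE1 have their lowest value at 20 s.

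Defence genes had the lowest median of any list, although with a pseudocount of 5 FPKM their median of -0.63 stood above the -0.68 of the EXORDIUM family. All 11 tested pathogenesis-related and defensin genes were lower at 60 s, 8 of them at least 1.5-fold (median -0.82). The defensins PDF1.3 (11.3, 7.35 and 2.92 FPKM), PDF1.5 (5.89, 7.78 and 3.28 FPKM) and PDF1.2 (14.9, 13.2 and 6.01 FPKM), small antimicrobial peptides of the jasmonate and ethylene pathways, were lower at 60 s than at 0 s. Their sequences are so alike that reads may be divided among copies. PR1, the usual marker of salicylic acid, was at 152, 264 and 149 FPKM, BGL2, a glucanase also known as PR2, at 245, 375 and 234 FPKM, and PR5, a thaumatin-like protein, at 244, 352 and 206 FPKM. These 3 had their highest value at 20 s and a value at 60 s below that at 0 s.

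The salicylic acid pathway itself was lower at several steps. Of 18 genes 17 were lower (median -0.41) and 4 past 1.5-fold. PBS3, which acts in its synthesis, was at 12.8, 15.5 and 8.86 FPKM, EDS5, which exports the precursor from plastids and overlaps another gene, at 13.3, 15.6 and 9.80 FPKM, and SARD1, a factor that turns on synthesis genes, at 42.9, 50.6 and 33.7 FPKM. ALD1, of pipecolic acid synthesis, stood at 4.61, 6.77 and 3.85 FPKM. NIMIN-2, whose product binds the receptor NPR1, was at 37.1, 34.1 and 18.2 FPKM. The receptor gene NPR4, at 26.98, 25.6 and 25.6 FPKM, and NIMIN-3, at 35.9, 35.5 and 35.7 FPKM, hardly differed.

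Receptor-like kinases of the cell surface were also mainly lower. The cysteine-rich family had 18 of 23 members lower (median -0.30), including ARCK1 at 50.9, 57.7 and 36.0 FPKM and CRK6 at 40.8, 44.9 and 29.4 FPKM, against CRK21 at 19.3, 14.7 and 19.5 FPKM. Wall-associated and immune receptor kinases were lower in 15 of 17 (median -0.11), none past 1.5-fold, with WAK1 at 155, 162 and 118 FPKM and the flagellin receptor FLS2 on the higher side at 5.03, 4.48 and 6.16 FPKM. Ubiquitin ligases of rapid stress responses were lower in 4 of 6 (median -0.18). HIR2, a hypersensitive-induced reaction protein of the plasma membrane, was at 138, 214 and 118 FPKM.

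Jasmonate and ethylene lists held members on both sides. Jasmonate synthesis and breakdown had 8 members higher and 11 lower (median -0.11). AOS, the first committed enzyme, was at 108, 99.9 and 135 FPKM, whereas LOX4 was at 3.83, 6.89 and 4.31 FPKM. The list also counts NATA1, at 0.941, 10.6 and 5.62 FPKM. NATA1 is an acetyltransferase and a jasmonate output gene, not an enzyme of jasmonate synthesis or breakdown. Signalling genes were higher in 9 of 12 (median 0.07), with MYC2, the main transcription factor, at 23.7, 22.4 and 26.2 FPKM and the repressor JAZ1 at 5.98, 11.5 and 8.02 FPKM. For ethylene 9 of 13 were higher (median 0.08), but ACS6, which makes the hormone's precursor, was at 13.5, 22.8 and 12.7 FPKM.

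Abscisic acid and dehydration output lay on the higher side. Of 16 genes 14 were higher (median 0.24), 4 of them at least 1.5-fold and none at least 1.5-fold lower. The late embryogenesis and cold-regulated genes COR413IM1 (39.3, 29.9 and 52.7 FPKM), RAB18 (10.9, 8.86 and 15.9 FPKM), COR15A (77.9, 52.2 and 88.6 FPKM) and KIN2 (455, 340 and 559 FPKM) all had their lowest value at 20 s. Naming them for their high ratios favours this order. CYP707A3, an enzyme that breaks the hormone down, was at 4.50, 9.26 and 4.18 FPKM, so that its order was the opposite. Regulators of the pathway were higher in 10 of 13 (median 0.14). The exceptions included the receptors PYL4 (42.4, 61.5 and 39.9 FPKM) and PYL5 (5.34, 12.3 and 8.32 FPKM), and the transcription factor ABF3 was highest of the list at 18.2, 17.1 and 23.2 FPKM.

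Proline metabolism held both directions in a single pathway. P5CS1, the rate-limiting enzyme of proline synthesis, was at 57.0, 48.4 and 94.4 FPKM (1.93-fold higher at 60 s than at 20 s), and ERD5, a proline dehydrogenase that breaks proline down, at 9.52, 26.5 and 13.5 FPKM (1.90-fold lower). The other 6 genes had ratios between -0.08 and 0.21, with P5CS2 at 51.5, 55.7 and 64.5 FPKM and P5CR at 58.1, 68.8 and 65.2 FPKM. P5CS1 and ERD5 thus differed in opposite directions, by nearly the same fold. GolS2, a galactinol synthase that makes another osmolyte precursor, was at 5.89, 4.98 and 8.96 FPKM.

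SAUR genes had a median of 0.31, with 24 of 30 higher and 7 at least 1.5-fold higher. This was the highest median of all lists at the minimum mean of 5 FPKM, but it was 0.16 when a mean of 20 FPKM was asked for and 0.09 with no minimum, below the 0.29 and 0.28 of the antenna genes. All 7 genes past 1.5-fold lie in 2 tandem arrays, whose 11 tested genes were all higher (median 0.63). Of the other 19 SAUR genes 13 were higher and 6 lower (median 0.15), and 0 were past 1.5-fold. In the array on chromosome 5, from AT5G18010 to AT5G18080, each of 6 genes had its lowest value at 20 s. AT5G18030 (SAUR21, chromosome 5 from 5968435 to 5968938) was at 18.2, 10.5 and 22.5 FPKM, SAUR20 at 16.1, 9.45 and 14.99 FPKM, and SAUR23 at 8.13, 5.64 and 9.46 FPKM. The first, SAUR19, at 4.06, 2.83 and 4.54 FPKM, was under the minimum mean.

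The array on chromosome 1 gave the same order in its 6 tested genes. From AT1G29430 to AT1G29510 their ratios were between 0.43 (SAUR63, at 20.6, 16.6 and 22.7 FPKM) and 0.89 (AT1G29460, at 14.2, 9.01 and 17.5 FPKM). The remaining members, AT1G29420 and AT1G29490, stayed under 1 FPKM at every exposure. Genes within an array are close copies that can share reads, so they do not count as separate observations. SAUR genes elsewhere were also found lower, such as AT1G72430 at 96.1, 119 and 89.5 FPKM and AT3G12830 at 14.9, 14.7 and 11.3 FPKM.

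**Figure D4:**
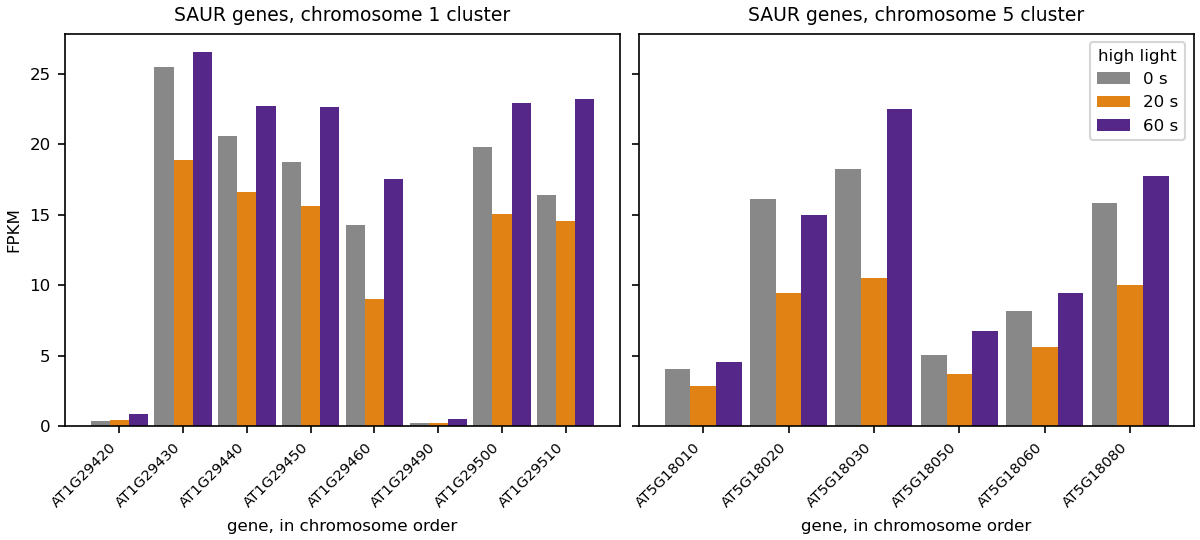
FPKM at 0, 20 and 60 s (bars) for the SAUR genes of the arrays on chromosome 1 (8 genes) and chromosome 5 (6 genes), in chromosome order. In every tested gene the bar for 20 s is the shortest, for example 10.5 FPKM between 18.2 and 22.5 FPKM in AT5G18030.

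Among other growth regulators the shade, PIF and PRE list differed most. Of its 15 tested genes 14 were higher (median 0.29), with PRE1, a small helix-loop-helix protein that promotes elongation, at 8.31, 4.88 and 10.3 FPKM, its relative KDR at 18.2, 14.9 and 22.6 FPKM, and PIF4, a phytochrome-interacting factor, at 28.7, 28.6 and 40.8 FPKM. The remaining growth lists had smaller medians, and their counts stand beside the 57.6% of all tested genes that were higher. Aux/IAA repressors were higher in 14 of 18 (median 0.12), where IAA14 led with 8.06, 8.38 and 13.2 FPKM, followed by IAA1 with 11.6, 12.1 and 18.4 FPKM. Other auxin response and transport genes were higher in 12 of 17 (median 0.11), and the efflux carrier PIN7 was at 37.6, 32.5 and 48.4 FPKM. Brassinosteroid and gibberellin genes were higher in 13 of 17 (median 0.09), with BES1, a brassinosteroid transcription factor, at 69.4, 69.1 and 96.8 FPKM and GASA1 as the lowest at 305, 475 and 308 FPKM. Aquaporins, the water channels, were higher in 16 of 21 (median 0.15, or 0.03 with no minimum level), among them the plasma membrane channel PIP2A at 550, 533 and 680 FPKM.

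Light and clock genes differed little but in a common direction. Core clock genes were higher in 23 of 25 (median 0.18), none of them past 1.5-fold, with FKF1, a blue light receptor of the flowering pathway, at 10.8, 6.27 and 9.81 FPKM. Of 23 B-box factors 20 were higher (median 0.22), and BBX16 (27.1, 18.3 and 30.6 FPKM) and BBX30 (8.71, 2.73 and 4.82 FPKM) were past 1.5-fold. Photoreceptors and light signalling genes were higher in 21 of 24 (median 0.10, or 0.05 with columns scaled to equal sums). The counts of list members were not redone under that scaling. PHOT1, the blue light receptor of phototropism, was at 107, 104 and 127 FPKM and HYH, a bZIP factor, at 53.6, 43.1 and 37.2 FPKM. HYH was lower with each exposure.

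Photosynthesis genes were likewise a little higher. Light-harvesting antenna genes were higher in 19 of 20 (median 0.28) and photosystem and electron transport subunits in 32 of 34 (median 0.18). All 279 organelle genes are listed at 0 FPKM at every exposure, so subunits encoded in the plastid are not covered. LHCB4.3, an antenna protein of photosystem II known to respond to strong light, was the only antenna gene that was lower, at 76.6, 90.3 and 54.5 FPKM, beside its relative LHCB4.1 at 2425, 2384 and 2655 FPKM. Antenna copies share sequence, and quantile normalization lowered the antenna median to 0.11 and the photosystem median to 0.06. The Calvin cycle and photorespiration had a median of 0.04, with RBCS1B lowest and PGLP1 highest at ratios of -0.09 and 0.29. Photoprotection genes were higher in 13 of 15 (median 0.11), although for the stress-induced antenna relative ELIP1 the values were 8.56, 8.41 and 4.96 FPKM.

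**Figure D5:**
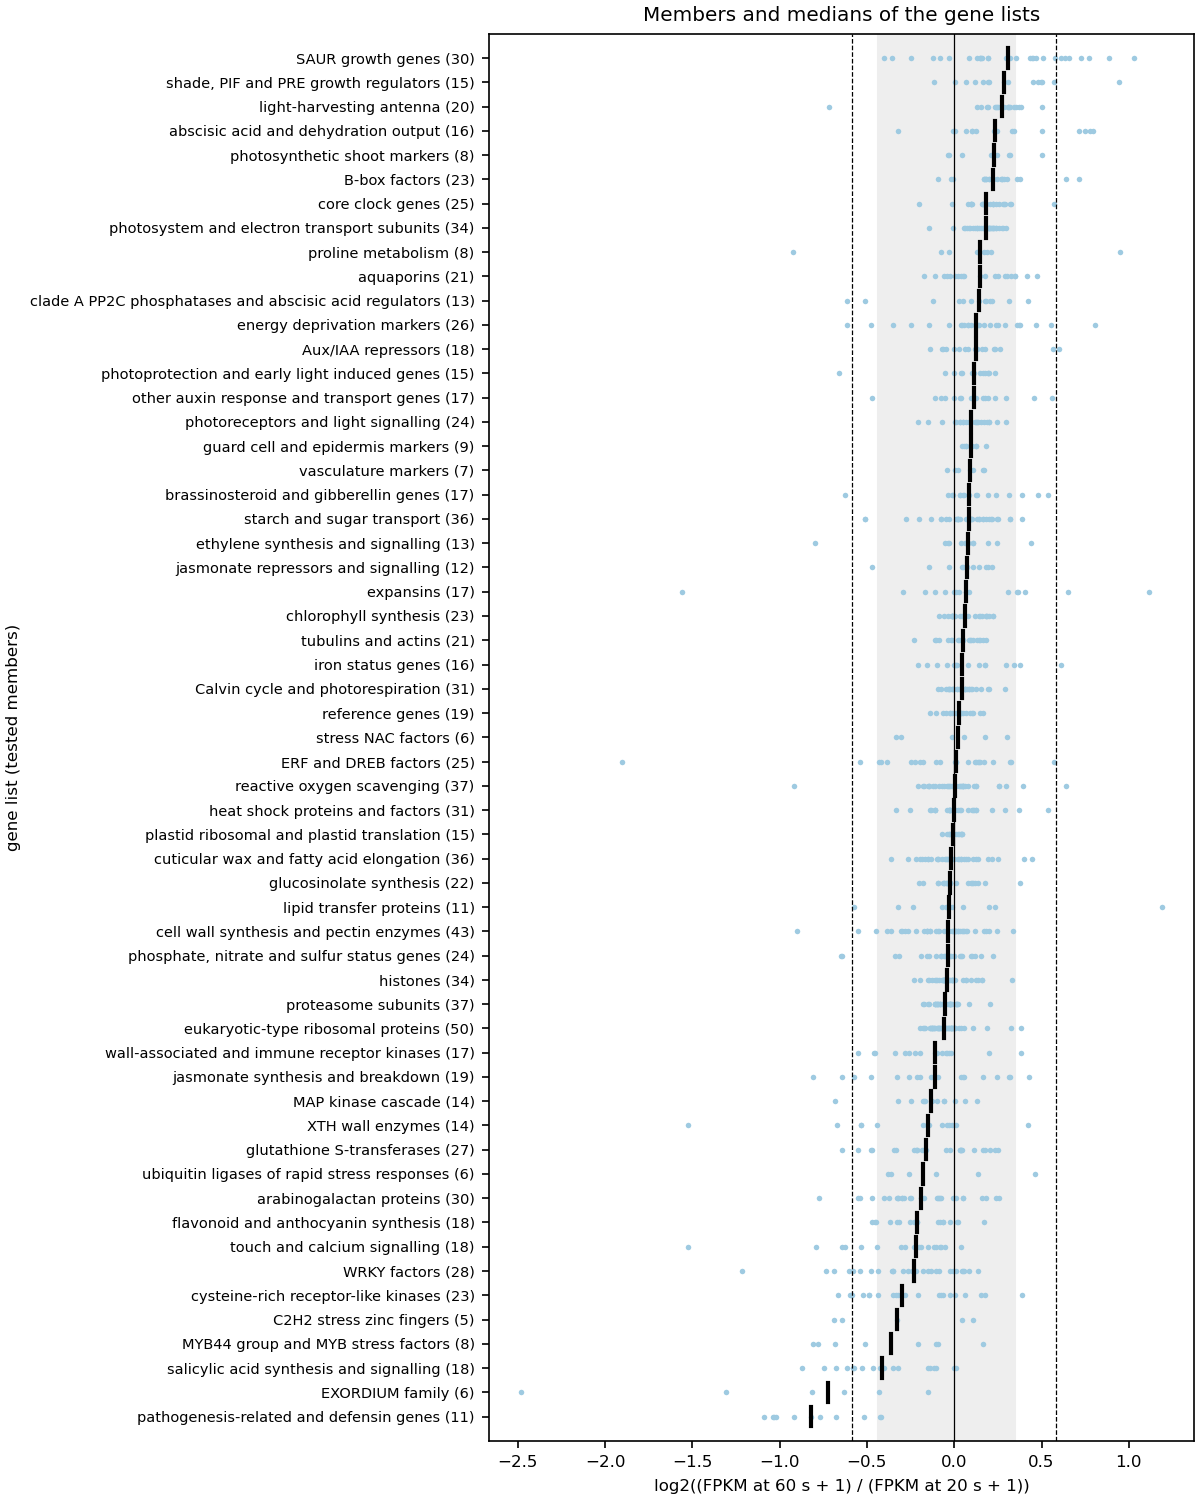
Log2 ratio of 60 s to 20 s for the tested members (points) of every list with at least 5 of them, with the list's median (black bar), the middle 95% of all tested genes (grey band, -0.44 to 0.35) and 1.5-fold (dashed lines). Medians run from -0.82 for pathogenesis-related and defensin genes to 0.31 for SAUR genes, and only the EXORDIUM list and the pathogenesis-related list have a median outside the grey band.

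Scavenging of reactive oxygen species, often linked to strong light, had no common direction. Of 37 genes 20 were higher and 17 lower (median 0.01). MDHAR (AT3G09940), which regenerates ascorbate, was at 5.67, 12.6 and 6.18 FPKM, FSD1, an iron superoxide dismutase, at 9.45, 16.7 and 26.6 FPKM, and the catalase CAT3 at 639, 859 and 1057 FPKM. FSD1 and CAT3 were higher with each exposure while MDHAR returned near its 0 s level. The oxidase RBOHD, which makes superoxide outside the cell, was at 28.7, 33.5 and 28.9 FPKM, and both tested oxidases were lower (median -0.15). Heat shock proteins and factors numbered 15 higher and 16 lower with a median of 0.00.

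Genes of low energy supply were mostly higher at 60 s, 20 of 26 with a median of 0.13. SEN1 was at 4.01, 12.6 and 22.7 FPKM, ASN1, an asparagine synthetase, at 4.15, 13.5 and 19.1 FPKM, and TPS11, of the trehalose phosphate synthase family, at 15.4, 38.0 and 49.3 FPKM. These 3 were higher with each exposure. In BT4 (27.0, 63.6 and 41.2 FPKM) and SIP2, an alpha-galactosidase (33.0, 77.4 and 55.4 FPKM), the 20 s value was the highest. Summed over the list, the level was 629, 1160 and 1241 FPKM.

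Among lists of secondary metabolism the flavonoid genes and glutathione S-transferases were on the lower side. Flavonoid and anthocyanin genes were lower in 15 of 18 (median -0.21), none past 1.5-fold, with the late enzyme LDOX at 21.2, 30.8 and 22.2 FPKM. Glutathione S-transferases had 11 higher and 16 lower (median -0.16), with GSTF7 at 127, 152 and 97.4 FPKM, and glucosinolate synthesis had 9 higher and 13 lower (median -0.02). Housekeeping lists had medians nearer to that of all genes. Eukaryotic-type ribosomal proteins were lower in 41 of 50 and proteasome subunits in 30 of 37, each with a median of -0.06, histones in 24 of 34 (median -0.04), plastid ribosomal proteins in 8 of 15 (median -0.01) and reference genes in 7 of 19 (median 0.03). Cuticular wax (15 of 36 higher, median -0.02), pectin and wall synthesis (17 of 43, median -0.03), lipid transfer proteins (4 of 11, median -0.03), sugar transport (27 of 36, median 0.08), iron status (11 of 16, median 0.05), nutrient status (8 of 24, median -0.04), chlorophyll synthesis (15 of 23, median 0.06) and tubulins and actins (14 of 21, median 0.05) had medians between -0.04 and 0.08.

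Of the genes past 1.5-fold, 86 of the 134 lower (64.2%) and 27 of the 48 higher (56.25%) belonged to no list, as did 10511 of all 11529 genes of the restricted set (91.2%). The lists were chosen with earlier results of these data known. Among the 30 lowest were the anion channel SLAH3 (5.20, 9.70 and 4.74 FPKM), the mitochondrial dicarboxylate carrier DIC2 (7.76, 14.4 and 7.24 FPKM), the purine permease PUP18 (29.3, 66.8 and 35.7 FPKM) and the senescence-associated gene SAG13 (9.83, 19.4 and 10.3 FPKM). All of these had their highest value at 20 s, which their choice by a low ratio favours. On the other side RGF9, annotated as a growth factor peptide of the root meristem, was at 209, 135 and 229 FPKM in these shoots, the carotenoid cleavage enzyme NCED4 at 107, 82.4 and 136 FPKM and the unannotated AT2G15020 at 36.5, 15.4 and 30.1 FPKM, each lowest at 20 s. The phloem protein gene PP2-A13 (13.8, 19.6 and 31.5 FPKM) and the oxidoreductase gene AT2G29300 (4.90, 7.56 and 13.4 FPKM) were instead higher with each exposure. A choice by a high ratio likewise favours a low value at 20 s, so the peaks and dips at 20 s are no separate result.

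Position added a few pairs. Among 13710 protein-coding genes above 0 in chromosome order, there were 8 adjacent pairs at least 1.5-fold lower, which hold 16 of 152 such genes, and 3 pairs at least 1.5-fold higher, which hold 6 of 58. Several pairs are tandem copies. The higher pairs were AT1G29460 with AT1G29465, SAUR20 with AT5G18030, and SAUR22 with SAUR23. Among the lower ones were PDF1.3 with PDF1.2b, PDF1.2 with PDF1.2c, the kinase genes CRK6 with CRK7, the chitinase genes CHI (33.0, 50.4 and 29.6 FPKM) with AT2G43590 (12.6, 13.8 and 7.51 FPKM), and FLOT1 (31.6, 41.9 and 25.4 FPKM) with AT5G25260 (7.05, 9.94 and 5.97 FPKM), which encode membrane raft proteins. WRKY38 and AT5G22520 are adjacent among tested genes but not annotated as copies.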

How the data were processed

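RNA of Arabidopsis shoots was sequenced by the authors from 3 pools per exposure, and they deposited FPKM with 1 column for each exposure. TopHat, Bowtie and Cufflinks with the TAIR9 build are named in the submitters' processing notes, while the sources used here do not give versions, strand handling or how pools were combined. FPKM has no depth attached, so the depth is unknown. Reads of near-identical copies can be divided between them, and a 0 may be a failed estimate.

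Ratios used a pseudocount of 1 FPKM, which understates differences of low genes, and took genes whose mean reached 5 FPKM. All 3 columns were matched by name and 0 columns were left unmapped. The planned test on single samples could not be made, because the table holds 1 value per exposure. Named genes are the 30 lowest and 30 highest of the restricted set, the 3 lowest and 3 highest tested members of each of 60 lists, and members of adjacent pairs. A few other list members, RBOHD, CAM3, WRKY3, BGL2, SARD1, MYC2 and HIS1-3 among them, were named after their values were seen. The members, the restricted set and the lists were chosen with earlier results of these data known, and the arabinogalactan list was separated from wall synthesis after its values were seen.

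Symbols, introns and promoters came from RefSeq TAIR10.1, which matched 32690 of 33473 identifiers (97.7%). The promoter of 1 further gene is not reported here. Gene coordinates follow the deposited table, with 1 added to each start, so promoter windows need not adjoin them. The ratio step was checked on simulated data. Python 3.11.15, pandas 2.3.3, numpy 2.4.6 and matplotlib 3.10.9 were used.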

Additional observations from a re-analysis of the deposited data

How the results depend on the processing

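With 1 value per exposure nothing could be tested, single pools could not be left out, and depth set an unknown limit. No paired analysis was possible because the columns carry no replicate numbers. Counts at a fold limit depended on the minimum level. The 20 genes at least 2-fold higher became 35 with a mean of at least 1 FPKM, 8 with at least 20 FPKM, 42 with no minimum, 10 when genes listed at 0 were left out and 5 in the restricted set. For the 33 genes at least 2-fold lower the numbers were 13 with at least 20 FPKM, 56 with no minimum, 20 without genes listed at 0 and 11 in the restricted set. At 1.5-fold the 76 higher genes became 46 with a pseudocount of 5 FPKM, 116 with a mean of at least 1 FPKM, 29 with at least 20 FPKM, 153 with no minimum and 48 in the restricted set, and the 173 lower genes became 100 with a pseudocount of 5 FPKM, 76 with at least 20 FPKM and 295 with no minimum. Median centring, columns scaled to equal sums and quantile normalization kept every count within 1.5 times, and lower genes outnumbered higher ones under each alternative. Columns scaled to equal sums changed the sign of 7 list medians, quantile normalization of 3 and median centring of 3, none larger than 0.05 in size, among them reactive oxygen scavenging, ERF and DREB factors and reference genes. With no minimum level the EXORDIUM median was -0.53, that of WRKY factors -0.09, of arabinogalactan proteins -0.07, of XTH enzymes -0.03, of cysteine-rich kinases -0.18, of ubiquitin ligases -0.31, of shade, PIF and PRE genes 0.18 and of aquaporins 0.03. With a mean of at least 20 FPKM the median of stress NAC factors was -0.16, of MYB factors -0.65 and of wall-associated kinases -0.21. In the restricted set the MYB median was -0.16 and the flavonoid median -0.09. Of 57 list medians, those of at least 0.1 in size kept their sign under every alternative run, except that of jasmonate synthesis, which went to 0.048 with a mean of at least 20 FPKM, and its cause was not tested. Of 377 named ratios, 0 changed sign while past 1.5-fold, but these alternatives could hardly have given another outcome. A pseudocount or a gene filter cannot change the sign of a single ratio. Columns scaled to equal sums moved the median ratio over all genes only from 0.02 to -0.02.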
